A study of Mus musculus with 20 samples.

Results

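The genes described here are 10 members of the planar cell polarity and Fat cadherin systems: Celsr1, Celsr2 and Celsr3, Vangl1 and Vangl2, Fat1, Fat2, Fat3 and Fat4, and Dchs1. They were taken by gene symbol from the 23432 symbols counted in every RNA library, and all 10 had enough counts to be tested. The members were picked by name, with earlier results of these data known.

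Planar cell polarity is the alignment of cells within the plane of a sheet, and in mouse skin it makes hair follicles tilt in a common direction along the body. Celsr proteins are atypical cadherins that bridge neighbouring cells, with Frizzled gathering on the side of a junction opposite to the membrane protein Vangl. Fat and Dachsous proteins are giant cadherins: Fat4 binds Dchs1 on the adjacent cell. In Drosophila the Fat and Dachsous pair controls polarity, and it controls growth through the Hippo kinases.

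RNA was sequenced from sorted back-skin cells of mouse embryos that carry a GFP knock-in at the delta-N form of p63, a transcription factor needed for stratified epithelia. The 4 groups of 3 libraries are KO epidermis at embryonic day 13 (E13; delta-N p63-GFP KI-KO), Het epidermis at E13, Het epidermis at E9 (replicates 1, 2 and 4) and Het dermis at E13, the last 3 all KI-Het. No group lacks the knock-in, so every contrast with KO has heterozygous and not wild-type cells as its base. The epidermal sort took GFP-positive cells and the dermal sort CD140a-stained ones (CD140a is encoded by Pdgfra). Libraries of epidermis were made after removal of rRNA and those of dermis after oligo(dT) selection.

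Gene counts ranged from 3373819 to 7777808 in the epidermal libraries and from 16931664 to 33386872 in the dermal ones, with 10765 to 16200 and 12998 to 15549 genes detected. These totals include the ribosomal RNA entry Rn45s, at 2.90% to 9.69% of epidermal counts. In dermis it held 11.2%, 30.7% and 19.1%. Levels below are CPM (counts scaled to a common library size) on TMM-scaled totals, and they compare a gene between libraries, not genes with each other, because transcript length was not used. Trp63, the targeted gene, had 23.0, 25.0 and 20.4 CPM in KO epidermis, against 519.9, 611 and 454 CPM in Het epidermis at E13, so the libraries match their genotype labels. Counts per gene do not separate the delta-N form from the other p63 transcripts. The 10 epidermal markers summed to 3037 to 4015 CPM in KO epidermis, 3799 to 5050 CPM in Het epidermis at E13, 2125 to 2275 CPM in Het epidermis at E9 and 6.06 to 10.8 CPM in dermis. These sums hide opposite shifts between KO and Het epidermis at E13. Libraries did not overlap for 8 of the 10, against 20% of all tested genes. The basal keratin Krt5 was called lower (34.4 and 1227 CPM, edgeR adjusted p = 9.36e-06) and Epcam higher (472 and 205 CPM, edgeR adjusted p = 3.1e-04). The keratins of simple epithelia, Krt8 and Krt18, averaged 851 and 767 CPM in KO and 239 and 156 CPM in Het without an edgeR call. Their Het E13 libraries spread widely, from 21.7 to 627 CPM and from 26.1 to 412 CPM. Krt14 (14.97 and 763 CPM), Krt15 (38.7 and 244 CPM) and Perp (30.1 and 378 CPM) averaged lower in KO, also uncalled by edgeR. Grhl2 averaged lower as well, and Cdh1 and Esrp1 higher. Of the 10 markers, 6 were at an unadjusted p under 0.05, 5 were called by DESeq2 and 7 by voom. The labels do not say that replicates came from separate embryos, so p-values measure only the spread between these samples, which may be technical.

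**Figure D1:**
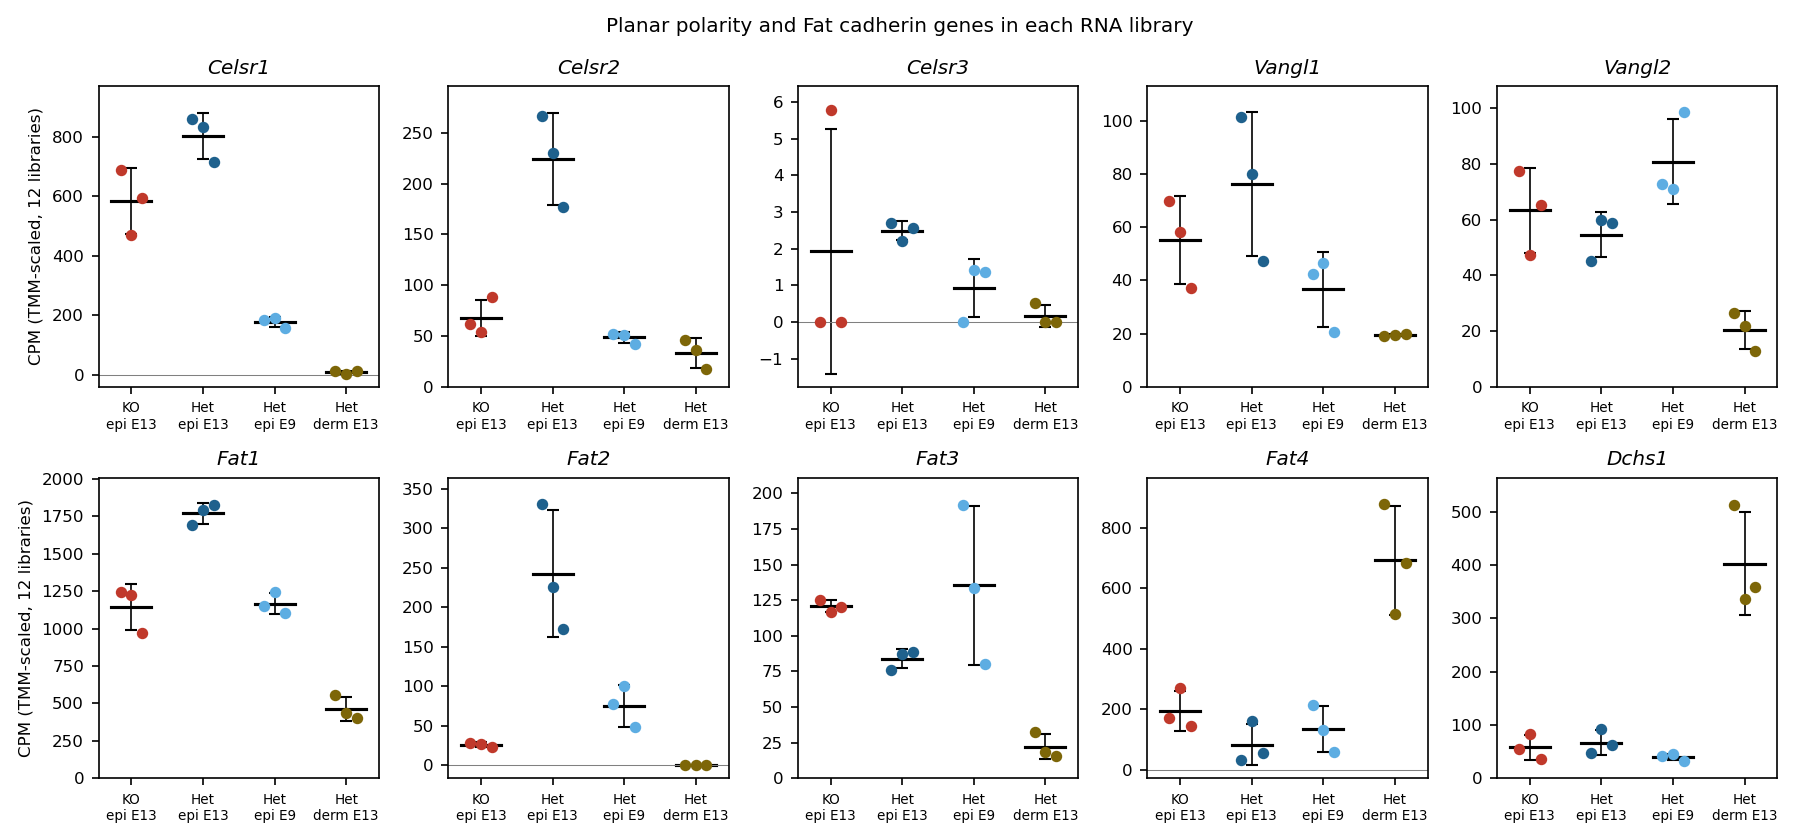
Level of each gene in the 12 RNA libraries, in CPM on TMM-scaled totals, with KO epidermis E13, Het epidermis E13, Het epidermis E9 and Het dermis E13 from left to right; points are libraries, bars the mean and error bars the SD (n = 3 each), and each panel has its own axis. Celsr2, Fat1 and Fat2 stand highest in Het epidermis at E13, while Fat4 and Dchs1 stand highest in dermis.

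The question of the first comparison is what the loss of p63 does to these genes in E13 epidermis. Celsr2, Fat1 and Fat2 were lower in KO than in Het epidermis, Fat2 by the most, at 10.8% of its Het mean. No member was called higher by edgeR, DESeq2 or voom. The 3 calls, all in 1 direction, stand beside 1.36% of the 13052 tested genes called lower, 0.835% called higher and 2.2% in either direction (edgeR quasi-likelihood test, Benjamini-Hochberg adjusted p under 0.05). For 5 members the 3 KO libraries did not overlap the 3 Het libraries, 4 of them below and 1 above, against 20% of all tested genes. The median log2 fold change was -0.43 over the 10 members and 0.03 over all tested genes.

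Fat2, a giant cadherin known in the mouse for cerebellar granule cells, had 28.8, 26.9 and 22.8 CPM in KO epidermis, against 331, 226 and 172 CPM in Het epidermis at E13. The KO libraries lay close together and far under the lowest Het library. The mean was 26.1 ± 3.08 CPM in KO and 243 ± 80.6 CPM in Het (SD, n = 3 each), which is 9.28-fold lower, with a log2 fold change of -3.23 ± 0.31 (SE; edgeR adjusted p = 3.75e-05). Celsr2, the Celsr family member also known for ciliated cells of the brain, had 61.4, 54.1 and 88.0 CPM in KO epidermis and 266, 230.4 and 177 CPM in Het epidermis. Its highest KO library was still below its lowest Het library. Celsr2 thus fell 3.31-fold in mean CPM, with a log2 fold change of -1.74 ± 0.23 (edgeR adjusted p = 9.19e-04). Fat1, the broadly expressed Fat cadherin that links cell contacts to the actin cytoskeleton, had 1245, 1223 and 969 CPM in KO epidermis, against 1693, 1795 and 1826 CPM in Het epidermis. The groups did not overlap, although the difference was the smallest of the 3 calls. Fat1 fell by 0.64 ± 0.11 on the log2 scale (edgeR adjusted p = 0.00698), to 64.7% of its Het mean.

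Celsr1, the Celsr protein that mouse skin needs for hair follicle alignment, had 687, 468 and 596 CPM in KO epidermis, against 860.2, 833 and 714 CPM in Het epidermis. All KO libraries lay below all Het libraries, but the edgeR test across genes did not call it. Its log2 fold change was -0.47 ± 0.16 with an edgeR adjusted p of 0.183, while DESeq2 gave an adjusted p of 0.0419 and limma voom 0.0474. Whether the change of Celsr2 exceeds that of Celsr1 was not tested. Celsr3, which acts mainly in axon guidance, was near the detection limit, with 0, 43 and 0 counts in KO and 12, 18 and 15 counts in Het libraries. A count of 0 allows up to 3 counts, or 0.455 and 0.776 CPM in the 2 KO libraries concerned, so the KO level rests on replicate 2. Its log2 fold change of -0.39 ± 2.05 could not be resolved at this depth (edgeR adjusted p = 0.982).

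Vangl2, whose mutation gives looptail mice with open neural tubes, had 77.6, 47.4 and 65.2 CPM in KO epidermis, against 45.2, 59.9 and 58.7 CPM in Het epidermis. The ranges overlapped, and the log2 fold change was 0.21 ± 0.26 (edgeR adjusted p = 0.878). Vangl1, its close relative, had 69.7, 58.3 and 37.3 CPM in KO and 101, 80.0 and 47.3 CPM in Het epidermis. Those ranges overlapped as well, with a log2 fold change of -0.48 ± 0.36 (edgeR adjusted p = 0.714).

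Fat3, a Fat cadherin known from the retina and other neural tissue, was the member whose KO libraries all lay above the Het libraries. It had 125, 117 and 121 CPM in KO epidermis, against 76.2, 87.2 and 88.7 CPM in Het epidermis, and was not called (log2 fold change 0.51 ± 0.25, edgeR adjusted p = 0.478). The summed markers of neurons and neural tube were higher in the same group. Those 10 genes summed to 120.3, 174 and 59.3 CPM in KO epidermis, against 1.81, 31.7 and 23.7 CPM in Het epidermis at E13. Map2 made up most of the KO sum, at 76.4, 122 and 44.8 CPM in KO and 1.81, 12.7 and 15.5 CPM in Het, and was the 1 gene called of the 9 tested (edgeR adjusted p = 0.0408). Elavl3 averaged 1.04 CPM in KO and 1.35 CPM in Het. In KO replicate 3, 7 of the 10 genes were at 0 (Tubb3, Elavl3, Elavl4, Stmn2, Sox1, Sox2 and Pax6), in KO replicate 1 Sox1 and Pax6, and in Het replicate 1 all but Map2. The summed 6 markers of melanocytes and neural crest also did not overlap, at 234 to 267 CPM in KO and 128 to 195 CPM in Het, with none of the 3 tested called by edgeR (1 at an unadjusted p under 0.05, 1 by DESeq2 and 1 by voom) and Sox10 at 0 in 2 libraries of each group. Erbb3 alone made up 238 CPM of that sum in KO and 146 CPM in Het, and Sox10, Dct and Pmel each averaged at most 1.36 CPM in either group. The part of these other cell types in the Fat3 level was not tested. In bulk samples a smaller share of cells of a type and less RNA per cell cannot be told apart.

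Fat4 and its ligand Dchs1 varied from library to library and were not called. Fat4 had 169.6, 271 and 145 CPM in KO epidermis and 32.1, 161 and 55.7 CPM in Het epidermis. Het replicate 2 was the library that made the groups overlap. The log2 fold change of Fat4 was 1.22 ± 0.65 (edgeR adjusted p = 0.572), and it was 2.12 without that library, still uncalled. Dchs1 had 54.3, 83.0 and 36.5 CPM in KO epidermis and 46.8, 92.1 and 61.8 CPM in Het epidermis, with its highest value in replicate 2 of each group. Its log2 fold change was -0.22 ± 0.33 (edgeR adjusted p = 0.908).

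The same 2 libraries stood apart in markers of dermal mesenchyme. The 12 marker genes summed to 1205, 2460 and 1300 CPM in KO epidermis, 520, 1630 and 549 CPM in Het epidermis at E13, 350, 280.4 and 359 CPM in Het epidermis at E9, and 34043 to 45873 CPM in dermis. None of the 12 was called between KO and Het epidermis at E13 by edgeR (1 at an unadjusted p under 0.05, 1 by DESeq2 and 1 by voom). Col3a1 made up most of the gap between the sums, at means of 789 CPM in KO and 177 CPM in Het epidermis at E13. Dcn (24.6 and 55.1 CPM), Vim (191 and 229 CPM) and Twist2 (2.58 and 3.26 CPM) averaged lower in KO, and the other markers higher. Twist2 and Lum were at 0 in KO replicate 3, in Het E13 replicate 1 and in all 3 E9 libraries, Dcn was at 0 in all 3 E9 libraries and Col6a3 in E9 replicate 1, and every other marker had counts in every epidermal library. Without replicate 2 of both groups, an alternative chosen after the data were seen, Celsr2, Fat1 and Fat2 were still called lower, with log2 fold changes of -1.59, -0.69 and -3.31. Fat4 then had a log2 fold change of 1.82 ± 0.54 (edgeR adjusted p = 0.264). Without replicate 2 of both groups the marker sums still did not overlap, at 1205 and 1300 CPM in KO and 520 and 549 CPM in Het. The part of mesenchymal RNA in the calls of Celsr2, Fat1 and Fat2 was not tested. Its part in the Fat4 and Dchs1 levels of the epidermal libraries was not tested either.

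**Figure D2:**
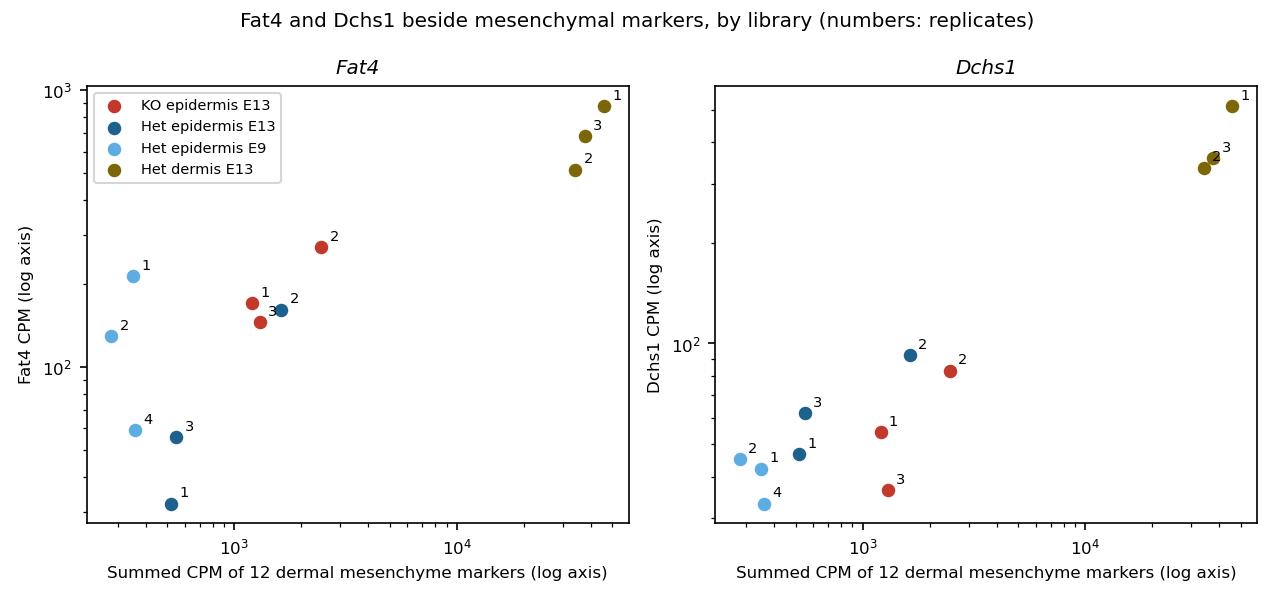
Fat4 (left) and Dchs1 (right) in CPM against the summed CPM of 12 dermal mesenchyme markers, both axes logarithmic; each point is a library, coloured by group, and the number beside it is its replicate. Replicate 2 of KO epidermis and of Het epidermis at E13 lie farthest right within their groups and carry the highest Fat4 and Dchs1 of those groups. The E9 replicates 1, 2 and 4 had 213, 129 and 58.9 CPM of Fat4 at marker sums of 350, 280.4 and 359 CPM.

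Of the genes that work with these members, Fzd6 stood out. Fzd6, the Frizzled receptor whose loss disturbs hair patterning in mice, had 132, 72.2 and 73.5 CPM in KO epidermis, against 431, 322 and 313 CPM in Het epidermis. Every KO library was below every Het library, and the log2 fold change was -1.95 ± 0.27 (edgeR adjusted p = 0.00125). It was the 1 call among 11 polarity partners (Frizzled, Dishevelled, Prickle, Ankrd6, Ptk7 and Scrib genes), whose median log2 fold change was -0.17. Of these 11, 4 were at an unadjusted p under 0.05, 1 was called by DESeq2 and 3 by voom. Libraries did not overlap for 5 of them, against 20% of all tested genes. Among 9 ligands, coreceptors and trafficking genes the 1 call was Gpr125, an adhesion receptor that interacts with Dishevelled in zebrafish. Gpr125 averaged 86.0 ± 23.2 CPM in KO and 212 ± 14.6 CPM in Het epidermis (SD, n = 3 each), a log2 fold change of -1.31 ± 0.19 (edgeR adjusted p = 0.00142). Of 4 counted Fat and Dachsous partners, none was called by edgeR, with 2 at an unadjusted p under 0.05, 2 by DESeq2 and 2 by voom. Of all tested genes, edgeR called 2.2% in this comparison.

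**Figure D3:**
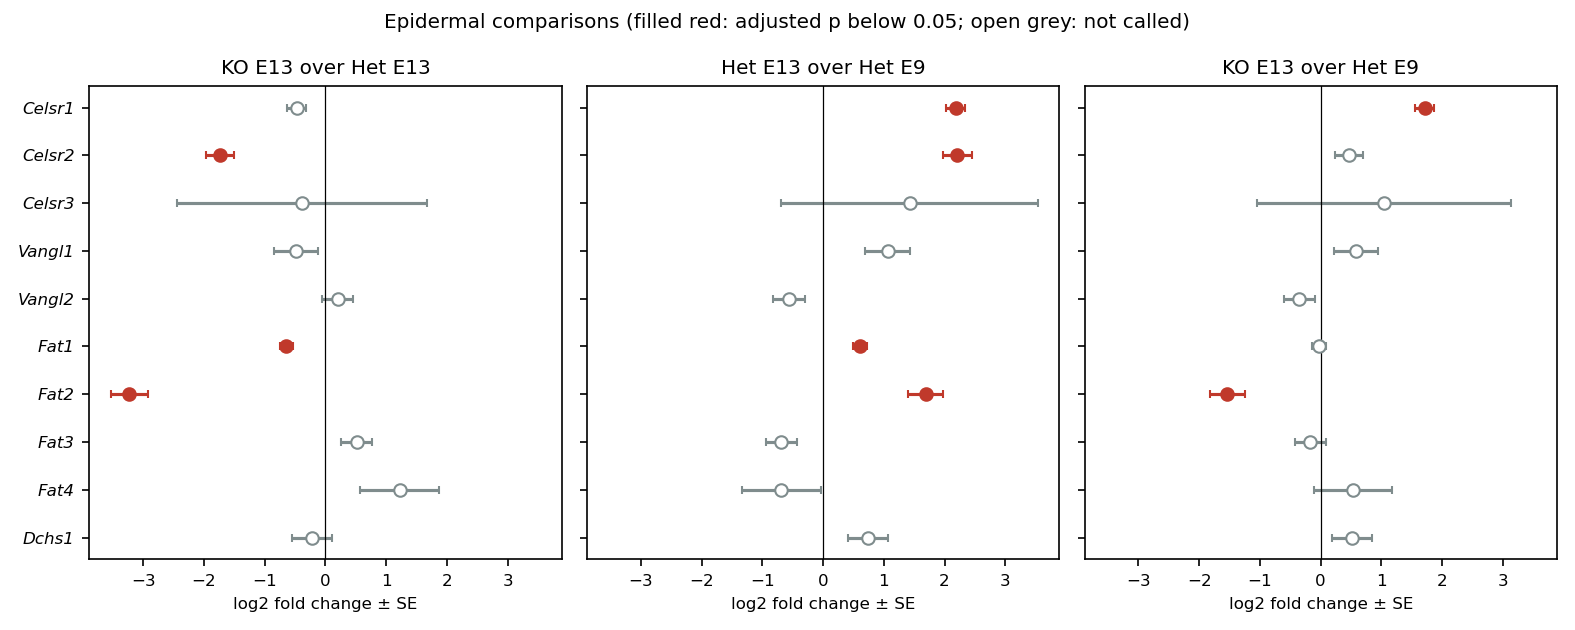
Log2 fold change of the 10 genes in the 3 epidermal comparisons, KO E13 over Het E13, Het E13 over Het E9 and KO E13 over Het E9, with SE from the edgeR fit of 9 libraries; filled red points passed an adjusted p of 0.05 and open grey points did not. Celsr2, Fat1 and Fat2 lie left of 0 in the first panel and right of 0 in the second, and Celsr1 is called only in the second and the third.

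The second comparison asks how the same genes differ between E13 and E9 in Het epidermis, the 4 days in which the single-layered ectoderm starts to stratify. Celsr1, Celsr2, Fat1 and Fat2 were higher at E13, the Celsr genes by more than 4-fold, and no member was called lower by edgeR. The background was 4.77% of tested genes called higher at E13, 2.53% called lower and 7.29% in either direction. Libraries of the 2 ages did not overlap for 8 members, 7 above and 1 below, against 28.9% of all tested genes. The 7 include Celsr3, with 12, 18 and 15 counts at E13 and 0, 8 and 6 counts at E9. Celsr3 passed the count filter mainly through the Het E13 libraries, so its lack of overlap is partly set by that filter. The median log2 fold change was 0.90 over the members. This comparison shares the 3 Het E13 libraries with the comparison of KO and Het, so a high or low value in those libraries enters both.

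Celsr1 averaged 802 ± 78.0 CPM at E13, against 183, 192 and 158 CPM in the E9 libraries. The E9 values lay close together and far below every E13 library, with a log2 fold change of 2.18 ± 0.16 (edgeR adjusted p = 2.15e-06). Celsr2 averaged 225 ± 45.0 CPM at E13, against 52.2, 51.1 and 42.6 CPM at E9, and its log2 fold change of 2.21 ± 0.24 was close to that of Celsr1 (edgeR adjusted p = 4.88e-05). Fat2 averaged 243 ± 80.6 CPM at E13 and had 78.0, 101 and 47.9 CPM at E9. It spread widely within both ages, yet the lowest E13 library exceeded the highest E9 library, and the log2 fold change was 1.69 ± 0.29 (edgeR adjusted p = 0.00200). Fat1 averaged 1771 ± 69.8 CPM at E13, against 1148, 1244 and 1106 CPM at E9, a log2 fold change of 0.61 ± 0.11 (edgeR adjusted p = 0.00397).

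The other 6 members had edgeR adjusted p-values from 0.104 to 0.809. Vangl1 had 42.4, 46.7 and 20.6 CPM at E9, all below its E13 libraries, and a log2 fold change of 1.06 ± 0.37 (edgeR adjusted p = 0.104), which DESeq2 called at an adjusted p of 0.0254. Vangl2 lay the other way, averaging 54.6 ± 8.16 CPM at E13 against 72.9, 71.2 and 98.6 CPM at E9. Every E9 library was above every E13 library, but the test did not call the difference (log2 fold change -0.56 ± 0.26, edgeR adjusted p = 0.245).

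Fat3 averaged 84.0 ± 6.83 CPM at E13 and had 192, 134 and 80.5 CPM at E9. Replicate 4 of E9 fell inside the E13 range while the other two lay above it. The log2 fold change was -0.69 ± 0.25 (edgeR adjusted p = 0.133), and without that replicate it was -0.95 and called lower at E13 (edgeR adjusted p = 0.0156). DESeq2 and voom also called it, with adjusted p-values of 0.0324 and 0.0377. The summed neuronal markers were 1.81 to 31.7 CPM at E13 and 72.6 to 98.1 CPM at E9, with none of 9 called by edgeR (3 at an unadjusted p under 0.05, 3 by DESeq2 and 1 by voom), and their part in the Fat3 level was not tested. Fat4 had 213, 129 and 58.9 CPM at E9 and Dchs1 42.3, 45.1 and 33.2 CPM. Fat4 overlapped between the ages, with a log2 fold change of -0.69 ± 0.65 (edgeR adjusted p = 0.675), whereas all E9 libraries of Dchs1 were below its E13 libraries at an uncalled log2 fold change of 0.74 ± 0.33 (edgeR adjusted p = 0.230). Of the 12 mesenchyme markers, Dcn and Vim were called higher at E13, with sums of 520 to 1630 CPM at E13 and 280.4 to 359 CPM at E9, and their part in these levels was not tested. Celsr3 had 0, 8 and 6 counts at E9, where the 0 allows up to 0.425 CPM, and was not resolved.

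Fzd6 was again the 1 call among the 11 polarity partners, averaging 355 ± 65.7 CPM at E13 and 94.8 ± 24.0 CPM at E9 (log2 fold change 1.91 ± 0.27, edgeR adjusted p = 5.1e-04). Of the 11, 4 were at an unadjusted p under 0.05, 3 were called by DESeq2 and 4 by voom. Ryk, a Wnt coreceptor that binds Vangl2, had 257, 311 and 300.1 CPM at E13, against 85.0, 73.8 and 83.5 CPM at E9. It was called higher with Smurf1, a ubiquitin ligase that acts on Prickle, as 2 of the 9 ligands, coreceptors and trafficking genes (edgeR adjusted p = 6.5e-06 for Ryk and 0.0463 for Smurf1). Of these 9, 5 were at an unadjusted p under 0.05, 2 were called by DESeq2 and 5 by voom. Their median log2 fold change was -0.15. In this comparison edgeR called 7.29% of all tested genes, 4.77% higher at E13 and 2.53% lower. Uncalled by edgeR, the ligand Wnt5a averaged 11.4 CPM at E13 and 102 CPM at E9, and the coreceptor Ror2 11.0 and 88.4 CPM.

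The third comparison sets KO epidermis at E13 against Het epidermis at E9 and asks how the members of the KO tissue differ from the earlier Het tissue. Celsr1 was higher in KO epidermis and Fat2 lower, and the other 8 members were not called. The background was 7.67% of tested genes called, 4.62% higher and 3.05% lower. Libraries did not overlap for 3 members, 2 above and 1 below, against 32% of all tested genes. Both groups also enter the comparisons above.

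Celsr1 averaged 584 ± 109.8 CPM in KO epidermis at E13 and 178 ± 17.3 CPM in Het epidermis at E9, a log2 fold change of 1.71 ± 0.16 (edgeR adjusted p = 1.63e-05). Each KO library was above each E9 library. Fat2 averaged 26.1 ± 3.08 CPM in KO epidermis and 75.6 ± 26.6 CPM at E9, and its log2 fold change was -1.54 ± 0.29 (edgeR adjusted p = 0.00466). Even the lowest E9 library held more Fat2 than any KO library. Celsr2 averaged 67.8 ± 17.8 CPM in KO and 48.6 ± 5.22 CPM at E9, where the libraries did not overlap but the test made no call (log2 fold change 0.47 ± 0.23, edgeR adjusted p = 0.266). Fat1 averaged 1146 ± 153 CPM in KO and 1166 ± 70.6 CPM at E9, with a log2 fold change of -0.03 ± 0.11 (edgeR adjusted p = 0.930). Fat4 and Dchs1 had uncalled log2 fold changes of 0.53 ± 0.65 and 0.52 ± 0.33 (edgeR adjusted p = 0.744 and 0.422), beside 3 of 12 mesenchyme markers (Col3a1, Dcn and Vim) called higher in KO, at sums of 1205 to 2460 CPM in KO and 280.4 to 359 CPM at E9; the part of mesenchymal RNA was not tested. The missing call does not show that Celsr2 and Fat1 were at equal levels in the 2 groups.

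None of the 11 polarity partners was called between KO at E13 and Het at E9 by edgeR, with 1 at an unadjusted p under 0.05, 0 by DESeq2 and 3 by voom. Ryk was called higher, averaging 294 ± 36.7 CPM in KO and 80.7 ± 6.06 CPM at E9 (edgeR adjusted p = 6.53e-06), and Gpr125 lower, at 86.0 ± 23.2 CPM in KO and 236 ± 15.8 CPM at E9 (edgeR adjusted p = 2.37e-04). They were 2 of the 9 ligands, coreceptors and trafficking genes, of which 5 were at an unadjusted p under 0.05. DESeq2 called 3 of the 9 and voom 5. Fjx1, the mouse relative of the Drosophila kinase Four-jointed that tunes Fat and Dachsous binding, had 17.4, 6.18 and 14.0 CPM in KO epidermis, against 82.5, 61.5 and 53.7 CPM at E9. It was the 1 call among the 4 Fat and Dachsous partners, with a log2 fold change of -2.40 ± 0.39 (edgeR adjusted p = 0.00157). Of all tested genes, edgeR called 7.67% in this comparison, 4.62% higher in KO and 3.05% lower.

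Ratios of counts within a library do not depend on how libraries are scaled, and they set each called gene against a relative. They were chosen after the values were seen, and no test was made. Per 100 counts of Celsr1 there were 8.94, 11.6 and 14.8 counts of Celsr2 in KO epidermis, 31.0, 27.6 and 24.8 in Het epidermis at E13, and 28.6, 26.6 and 27.0 in Het epidermis at E9. The KO libraries alone had fewer than 20 in this ratio, while the Het libraries of both ages had similar ones. Per 100 counts of Fat1 there were 2.31, 2.20 and 2.35 counts of Fat2 in KO epidermis, 19.5, 12.6 and 9.42 in Het epidermis at E13, and 6.79, 8.12 and 4.33 in Het epidermis at E9. The 3 groups did not overlap in this ratio, which was lowest in KO.

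The last comparison sets Het epidermis against Het dermis at E13, where tissue and library preparation cannot be told apart. Of the 10 members, 7 were called higher in epidermis (Celsr1, Celsr2, Vangl1, Vangl2, Fat1, Fat2 and Fat3) and 2 lower (Fat4 and Dchs1). The background is high, with 34.7% of 12975 tested genes called, 16.5% higher and 18.2% lower. Scaling bears on that split: with raw totals 3156 genes were higher and 1438 lower, against 2140 and 2364 with TMM, and the median log2 fold change of all genes was 0.30 in place of -0.13. Under raw totals the 9 members kept both their calls and their directions. All 10 members had libraries that did not overlap between the tissues, against 55.9% of all tested genes. Celsr3, at 12, 18 and 15 counts in epidermis and 9, 0 and 0 in dermis, and Fat2 passed the count filter through the epidermal libraries. Their lack of overlap is thus partly set by that filter.

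Celsr1 averaged 802 ± 78.0 CPM in epidermis, against 12.7, 3.54 and 11.9 CPM in dermis, a log2 fold change of 6.39 ± 0.48 (edgeR adjusted p = 1.28e-04). Fat2 averaged 243 ± 80.6 CPM in epidermis and had 0 counts in each dermal library. A floor of 3 counts over the dermal group, or 0.0528 CPM, makes Fat2 at least 4595-fold higher in epidermis (edgeR adjusted p = 3.5e-05), a bound that covers counting error only. Celsr2 averaged 225 ± 45.0 CPM in epidermis, against 46.2, 35.8 and 17.1 CPM in dermis, with a log2 fold change of 2.75 ± 0.35 (edgeR adjusted p = 7.82e-04). The dermal level of Celsr2 was thus measurable, unlike that of Fat2.

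Fat1 had 557, 434 and 399.9 CPM in dermis, and its log2 fold change of 1.92 ± 0.17 favoured epidermis (edgeR adjusted p = 1.32e-04). Fat3 had 32.2, 18.6 and 16.0 CPM in dermis, with a log2 fold change of 1.91 ± 0.29 (edgeR adjusted p = 0.00169). Vangl1 had 19.2, 19.3 and 19.9 CPM and Vangl2 26.5, 22.0 and 13.0 CPM in dermis. The log2 fold change was 1.94 ± 0.30 for Vangl1 (edgeR adjusted p = 0.00187) and 1.40 ± 0.32 for Vangl2 (edgeR adjusted p = 0.0113), so both Vangl genes were called higher in epidermis. Celsr3 had 9, 0 and 0 counts in dermis and was not called by edgeR (log2 fold change 3.79 ± 1.90, adjusted p = 0.160), although voom called it at an adjusted p of 0.0341.

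The receptor and ligand pair ran the opposite way. Fat4 averaged 82.9 ± 68.7 CPM in epidermis, against 877, 516 and 684 CPM in dermis, a log2 fold change of -3.05 ± 0.60 (edgeR adjusted p = 0.00816). Dchs1 averaged 66.9 ± 23.1 CPM in epidermis, against 513, 336 and 358 CPM in dermis, a log2 fold change of -2.59 ± 0.29 (edgeR adjusted p = 3.90e-04). The epidermal libraries of both genes lay well below every dermal library, and replicate 1 was the highest of the dermal libraries for each. All 12 mesenchyme markers were called lower in epidermis, at sums of 520 to 1630 CPM in epidermis and 34043 to 45873 CPM in dermis. All 10 epidermal markers were called higher by edgeR, with 9 called by DESeq2 and 8 by voom.

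**Figure D4:**
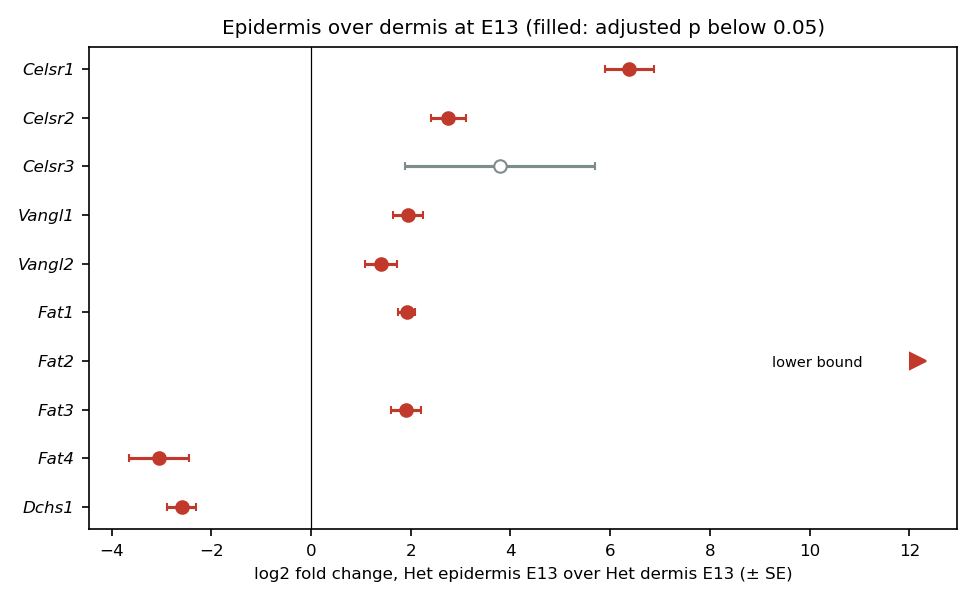
Log2 fold change of the 10 genes, Het epidermis at E13 over Het dermis at E13, with SE from the edgeR fit of 6 libraries; filled points passed an adjusted p of 0.05, the open point (Celsr3) did not, and the arrowhead for Fat2 is a lower bound because dermis had 0 counts. Fat4 and Dchs1 are the members left of 0.

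Other genes of polarity were called in both directions between the tissues, beside 16.5% of all tested genes called higher and 18.2% lower. Of the 11 polarity partners, 6 were called higher in epidermis (Fzd3, Fzd6, Dvl3, Prickle3, Ankrd6 and Scrib) and 3 lower (Prickle1, Prickle2 and Ptk7). Fzd6 averaged 355 ± 65.7 CPM in epidermis and 19.2 ± 2.36 CPM in dermis (log2 fold change 4.18 ± 0.21, edgeR adjusted p = 2.08e-05). Ptk7, a Wnt coreceptor of the polarity pathway, averaged 230.0 ± 11.9 CPM in epidermis and 851 ± 165 CPM in dermis (log2 fold change -1.91 ± 0.17, edgeR adjusted p = 1.3e-04). The Wnt ligands Wnt5a and Wnt11 and the Wnt5a receptor Ror2 were lower in epidermis, with log2 fold changes of -5.06, -6.11 and -3.94 and edgeR adjusted p-values of 0.00770, 6.86e-04 and 0.0237. Ryk and Gpr125 were called higher in epidermis, which makes 2 higher and 3 lower of the 9 ligands, coreceptors and trafficking genes. Lix1 and Lix1l, relatives of Drosophila Lowfat, which binds Fat and Dachsous, were called lower in epidermis, as 2 of 4 Fat and Dachsous partners.

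Across the 4 groups, Celsr1 means ran from Het epidermis at E13 through KO epidermis and Het epidermis at E9 to dermis, with no overlap between neighbours in that order. Fat2 ran from Het epidermis at E13 through Het epidermis at E9 and KO epidermis to dermis, also without overlap. For Celsr2 the order was that of Celsr1, and the libraries of E9 epidermis and dermis overlapped. Fat1 was highest in Het epidermis at E13 and lowest in dermis, with overlapping libraries of KO epidermis and E9 epidermis between them. Vangl2 and Fat3 had their highest means in E9 epidermis, followed by KO epidermis, Het epidermis at E13 and dermis. Of those neighbours the E9 and KO libraries overlapped for both genes, and the KO and Het E13 libraries overlapped for Vangl2 but not for Fat3. Vangl1 libraries overlapped between Het and KO epidermis at E13 and between KO and E9 epidermis, and Celsr3 libraries between all neighbours. Fat4 and Dchs1 were highest in dermis without overlap, and their 3 epidermal groups overlapped from neighbour to neighbour.

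For the 4 members called in an epidermal comparison, the genes with the closest profiles over the 9 epidermal libraries were listed by the root mean square distance of log2 CPM, each gene centred on its own mean, among 9412 genes. Closest to Celsr1 were Gpr56 at 0.205 and Adamts17 at 0.213, where the median gene lay at 1.06. Closest to Celsr2 were Syk at 0.278 and Egfr at 0.317, with a median of 1.09. Egfr, the epidermal growth factor receptor, averaged 81.3 CPM in KO epidermis, 369.8 CPM in Het epidermis at E13 and 90.7 CPM in Het epidermis at E9. Closest to Fat1 were Usp36 at 0.108 and Ttc3 at 0.124, with a median of 0.554. Closest to Fat2 were Mgat5 at 0.348 and Pvrl1 at 0.440, with a median of 1.42. Pvrl1, which encodes the junction protein nectin-1, averaged 71.0 CPM in KO epidermis, 387 CPM in Het epidermis at E13 and 104 CPM in Het epidermis at E9. Syk averaged 6.13, 21.0 and 4.28 CPM in the same 3 groups. Between KO and Het at E13, edgeR called Egfr, Ttc3, Mgat5 and Pvrl1 but not Gpr56, Adamts17, Syk or Usp36.

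The 10 genes lie on 7 chromosomes of the mouse genome in the RefSeq annotation of GRCm38.p6, all protein coding. Celsr1 is at chr15:85898758-86034223, Celsr2 at chr3:108390848-108416069 and Celsr3 at chr9:108826023-108852969. Vangl1 is at chr3:102153583-102204744 and Vangl2 at chr1:172000960-172027318. Fat1 is at chr8:44933100-45052257, Fat2 at chr11:55250609-55337505, Fat3 at chr9:15910189-16502681 and Fat4 at chr3:38884667-39011992, and Dchs1 is at chr7:105752989-105788355. No member overlaps another gene that was counted under its current RefSeq symbol. Neighbours counted under an older symbol were not checked.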

How the data were processed

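RNA was measured in 12 libraries, 3 in each of 4 groups taken from the labels; the 7 ATAC libraries and 1 ChIP library of the series were not analysed here. The deposited files hold whole-number counts per gene symbol, made by the authors. Per the submitters' processing notes, the tools were HTSeq, Bowtie2 and TopHat2 and the build mm10, with no version or role. With strand use in counting not given in the sources used here, reads of antisense partners cannot be told apart. Summary lines, 48.8% to 63.8% of entries in epidermal and 20.2% to 21.6% in dermal files, were left out of totals. Of 23432 symbols, 21570 matched RefSeq (GRCm38.p6) and 1712 more a synonym.

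Differences were tested with edgeR 4.0.16 in R 4.3.3 (filterByExpr, TMM, robust quasi-likelihood, two-sided), with Benjamini-Hochberg adjustment over all tested genes and a threshold of 0.05. The 3 epidermal comparisons came from 1 fit of 9 libraries (6 residual degrees of freedom, common biological coefficient of variation 0.571), and the tissue comparison from the 6 libraries concerned (4 residual degrees of freedom, 0.506). CPM use TMM totals over all 12 libraries. Pairs of replicates had a chi-square of 15.4 to 227 per degree of freedom, above sampling noise. The scripts were tested on simulated data.

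All 10 members and Trp63 are named; a gene of a pathway list could be named where it was called, and so could the 2 nearest genes of each member that was called in an epidermal comparison and averaged at least 10 CPM (log2 CPM with a prior count of 2). The list of polarity effectors is not reported here. Members and lists were chosen with earlier results of these data known. Alternatives were DESeq2 1.42.0, limma 3.58.1 voom, other scalings and filters, other sets of libraries and a replicate block; the alternative without the libraries highest in mesenchyme markers was added after the data were seen. Floors of 3 counts cover counting error only, since PCR copies are not independent molecules.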

Additional observations from a re-analysis of the deposited data

How the results depend on the processing

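Over 40 results for single members and 675 alternatives, 655 values kept direction and side of the threshold, none lost a call, 9 gained one and 11 changed sign, all of the last among uncalled results. Members called between KO and Het epidermis at E13 were 3 or 4, between Het E13 and Het E9 4 to 6, between KO E13 and Het E9 2 throughout, and between epidermis and dermis 9 or 10. Sign changes were those of Celsr3 between KO and Het at E13 (from -6.86 to 0.19 with a replicate left out, and 0.23 without the libraries with fewest genes), Celsr3 between KO E13 and Het E9 (from -5.44 to 1.61 with a replicate left out), Dchs1 between KO and Het at E13 (from -0.56 to 0.0611, the highest without Het replicate 2), Fat3 between KO E13 and Het E9 (from -0.44 to 0.15), and Fat1 between KO E13 and Het E9 (from -0.10 to 0.0533, and 0.0115 with voom, 0.0280 with raw totals and 0.0172 without the libraries with fewest genes). The cause was not tested, except that Celsr3 lost its only KO counts with replicate 2.

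In the 3 epidermal comparisons the number of genes called depended on the tool. Between KO and Het at E13 it was 287 with edgeR, 824 with DESeq2, 635 with voom, 182 to 348 with a replicate left out (lowest without KO replicate 1) and 148 without the libraries highest in mesenchyme markers. Between Het E13 and Het E9 it was 952, 1997 with DESeq2, 1692 with voom and 569 to 812 with a replicate left out (597 without E9 replicate 1, 569 without E9 replicate 2). Between KO E13 and Het E9 it was 1001, 2172 with DESeq2, 2563 with voom and 557 to 815 with a replicate left out (592 without KO replicate 1, 606 and 557 without E9 replicates 1 and 2). Between epidermis and dermis it was 4504 and, with a replicate left out, 2934 to 5269, lowest without dermis replicate 3.

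Replicate numbers are shared between groups, but the deviations of same-numbered libraries did not all correlate above 0.1 (r from -0.06 to 0.20 between KO and Het at E13, highest for the replicates 2, and from -0.03 to 0.03 in the other comparisons), so the numbers were not taken as pairs. With a replicate block 286 genes were called between KO and Het at E13, 576 between Het E13 and Het E9, 540 between KO E13 and Het E9 and 3464 between epidermis and dermis; no member lost a call, and Fat3 gained one between Het E13 and Het E9 (log2 fold change -0.96). Depth limits Celsr3, with at most 43 counts in any library.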

Other observations

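The Hippo pathway, which in Drosophila lies downstream of Fat, was listed separately as 10 kinases and regulators and 11 genes of Yap, Tead and their targets. Between KO and Het epidermis at E13 none of the 10 kinases and regulators was called by edgeR, with 2 at an unadjusted p under 0.05, 1 by DESeq2 and 1 by voom. Of the 10 tested Yap and Tead genes 1 was called lower, against 1.36% of all tested genes. This was Ajuba, an adaptor at cell junctions that binds Lats kinases. Ajuba had 96.9, 77.5 and 51.0 CPM in KO epidermis, against 150.3, 224 and 211 CPM in Het epidermis, a log2 fold change of -1.39 ± 0.22 (edgeR adjusted p = 0.00314).

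Between Het epidermis at E13 and E9, 3 of the 10 kinases and regulators were called higher at E13, against 4.77% of all tested genes. These were the kinase Lats1 (log2 fold change 1.20 ± 0.21, edgeR adjusted p = 0.00207), the scaffold Wwc1, also called Kibra (0.78 ± 0.17, edgeR adjusted p = 0.0105), and Frmd6 (0.99 ± 0.23, edgeR adjusted p = 0.0181). Tead2, a DNA-binding partner of Yap, was called lower at E13, with 39.1, 78.9 and 71.0 CPM at E13, against 187, 232 and 184 CPM at E9 (edgeR adjusted p = 5.62e-04). Between KO epidermis at E13 and Het epidermis at E9, Lats1 and Wwc1 were called higher in KO, and Tead2 and Ajuba lower. In that comparison 7.67% of all tested genes were called. Between epidermis and dermis at E13, where 34.7% of all tested genes were called, 4 of the 10 kinases and regulators were called, Stk4, Lats1 and Wwc1 higher in epidermis and Frmd6 lower. Of the 10 tested Yap and Tead genes, 5 were called, Yap1 and Ajuba higher in epidermis and Wwtr1, Tead2 and Cyr61 lower. Yap1 and Wwtr1, which encodes the Yap relative Taz, had log2 fold changes of 0.52 ± 0.16 and -2.33 ± 0.44 (edgeR adjusted p = 0.0374 and 0.00612).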
